A study of Danio rerio with 12 samples.

Results

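The 6 genes described here encode transcription factors of the skeletal muscle programme: the MyoD family genes myod1, myog, myf5 and myf6, and the Mef2 genes mef2ca and mef2d. They were taken by name from the deposited count table, which lists 15265 genes, and all 6 were present. The libraries are polyadenylated RNA of whole zebrafish embryos, in 4 groups of 3: miR-34a-/- embryos given camptothecin (CPT), wild-type embryos given CPT, miR-34a-/- embryos given DMSO and wild-type embryos given DMSO. The drug, an inhibitor of topoisomerase I that leads to DNA breaks, was used at 1 µM from 24 to 28 hours post fertilisation, a 4 h exposure, and the controls received 0.005% DMSO. The drug stock was in DMSO, and the final DMSO content of the CPT groups is not given. A matched vehicle therefore cannot be shown, and a difference in DMSO content cannot be told apart from the drug in any CPT comparison. Each library represents 30 to 50 pooled embryos. How the mutant allele was made and whether the pools were separate clutches are not stated, so the p-values describe the spread among pools, part of which may be technical.

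MyoD family proteins are basic helix-loop-helix factors that bind E-box sequences together with E proteins and commit cells to the muscle lineage. In vertebrates Myf5 and MyoD act first, in muscle precursors of the somites, and myogenin drives precursors into differentiation, while Myf6 (Mrf4) acts around differentiation. Mef2 proteins are MADS-box factors that work with the MyoD family on the promoters of contractile genes, and they also act in the heart, in neurons and, for mef2ca, in the skeleton of the zebrafish jaw. At the sampled stage the trunk somites hold both dividing precursors and young fibres.

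CPT moved the 6 members in different ways, and the directions did not divide by family. In both genotypes mef2ca and mef2d fell 4.03- to 5.40-fold, while myog rose and myf6 fell by a smaller amount. The first-acting genes behaved otherwise: myf5 did not pass the test in either genotype, and myod1 rose in mutants but did not pass the test in wild-type embryos. All 6 members passed the filter on low counts. In mutants 2 members rose, 3 fell and 1 was not called, and in wild-type embryos 1 rose, 3 fell and 2 were not called. A call is an edgeR quasi-likelihood p, Benjamini-Hochberg adjusted over all 11866 genes tested, under 0.05. CPT changed most of the transcriptome: 60.2% of the tested genes were called in mutants (28.5% higher, 31.7% lower) and 60.8% in wild-type embryos (29.1% higher, 31.8% lower). Being called is therefore common for any gene here, and direction and size carry the description.

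**Figure D1:**
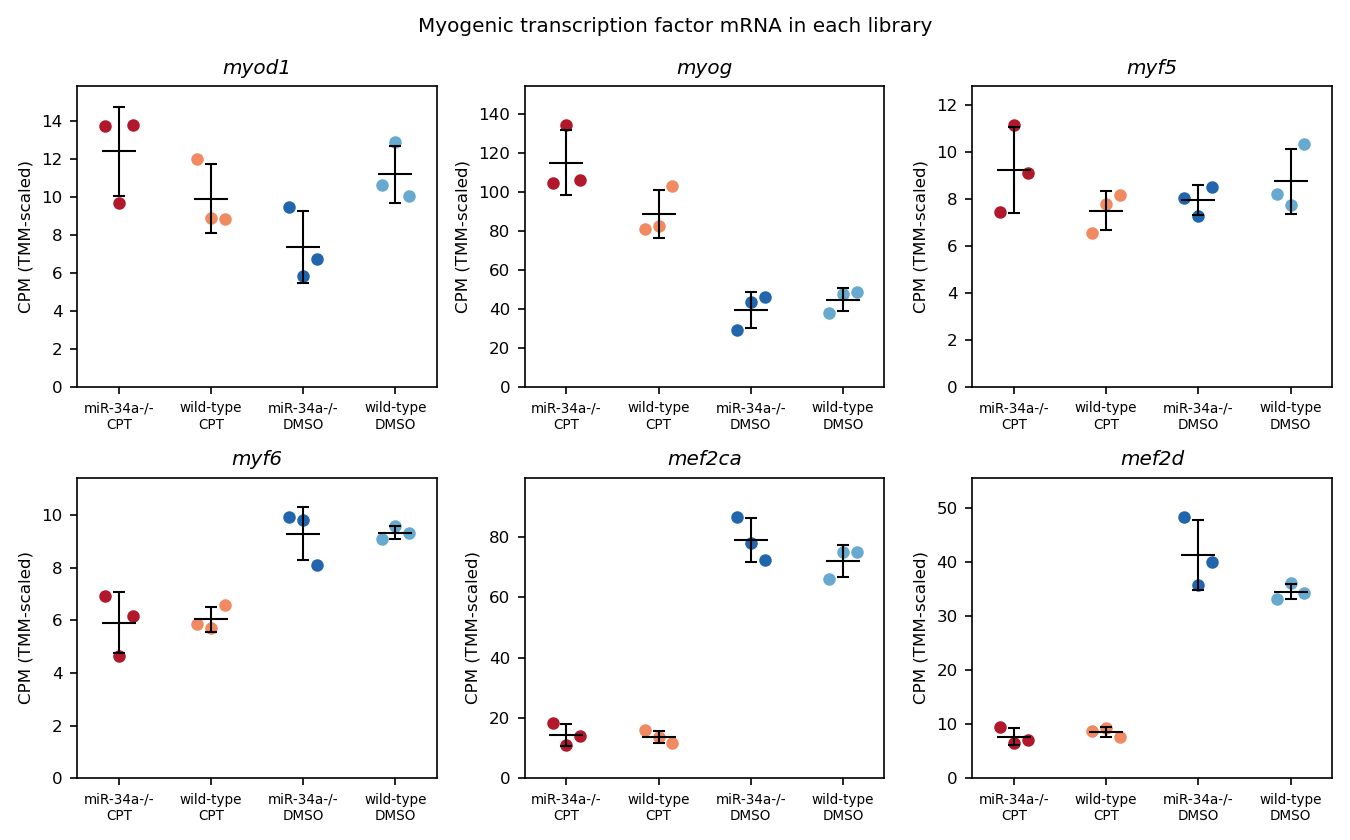
CPM (counts scaled to library size with TMM factors) of the 6 genes in each of the 12 libraries, 1 panel per gene with its own axis from 0. Points are libraries, horizontal marks are group means and bars are SD (n = 3). The CPT libraries of both genotypes lie below all DMSO libraries for mef2ca, mef2d and myf6 and above them for myog.

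The targeted locus was checked first. The row mir34, an older symbol of mir34a in RefSeq, had 0 counts in all 6 mutant libraries, against 9, 9 and 32 counts in wild-type CPT and 0, 1 and 0 counts in wild-type DMSO libraries. Mutant CPT libraries held 13.5 to 21.7 M counts and wild-type CPT libraries 20.3 to 27.9 M, while mutant DMSO libraries held 15.03 to 22.4 M and wild-type DMSO libraries 20.2 to 22.8 M. TMM factors, which correct for composition, were 0.835 to 0.962 in the 3 wild-type CPT libraries and 1.01 to 1.09 in the other 9, so levels in that group depend more on the scaling than levels in the others. When only library totals were used for scaling, the median log2 change over all genes under CPT was -0.063 in mutants and -0.23 in wild-type embryos. Each member had between 72 and 2765 counts per library. Levels are compared between groups of 1 gene and not between genes, since transcript lengths of the authors' annotation were not used here.

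Among the MyoD family, myog, the driver of terminal differentiation, rose. It had 104, 134 and 106 CPM in mutant CPT libraries, against 29.1, 43.3 and 46.1 CPM in mutant DMSO libraries. In wild-type embryos it had 80.8, 82.6 and 103 CPM under CPT, against 37.8, 47.6 and 48.4 CPM under DMSO. Every CPT library was above every DMSO library. The log2 fold change was 1.54 ± 0.16 (SE) in mutants, a 2.90-fold rise (adjusted p = 2.67e-07), and 0.99 ± 0.16 in wild-type embryos, a 1.99-fold rise (adjusted p = 3.34e-05). The fold change in mutants lay at the 97.1 percentile of all tested genes, and that in wild-type embryos at the 93.1 percentile.

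The commitment gene myod1 had 13.8, 9.72 and 13.8 CPM in mutant CPT libraries, against 9.50, 5.87 and 6.74 CPM in mutant DMSO libraries. The CPT libraries were all higher, although the lowest of them was only just above the highest DMSO library. The gene rose in mutants by 0.77 ± 0.20 on the log2 scale, or 1.70-fold (adjusted p = 0.00222). In wild-type embryos it had 12.04, 8.90 and 8.85 CPM under CPT, against 10.6, 12.9 and 10.1 CPM under DMSO. These groups overlapped, and the change of -0.18 ± 0.19 did not pass the test (adjusted p = 0.42, 95% interval -0.58 to 0.21).

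The early gene myf5 had 7.45, 11.1 and 9.10 CPM in mutant CPT libraries, against 8.03, 7.27 and 8.52 CPM in mutant DMSO libraries. In wild-type embryos it had 6.55, 7.77 and 8.15 CPM under CPT, against 8.21, 7.72 and 10.3 CPM under DMSO. The groups overlapped in both genotypes. The log2 changes were 0.21 ± 0.18 in mutants (adjusted p = 0.316, 95% interval -0.16 to 0.58) and -0.22 ± 0.17 in wild-type embryos (adjusted p = 0.287, interval -0.58 to 0.14). Scaled by library totals alone, the wild-type value was -0.44 and was called (adjusted p = 0.0473), where the median of all genes was -0.23.

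The later gene myf6 had 6.91, 4.63 and 6.17 CPM in mutant CPT libraries, against 9.93, 9.81 and 8.11 CPM in mutant DMSO libraries. In wild-type embryos it had 5.84, 5.71 and 6.58 CPM under CPT, against 9.10, 9.58 and 9.30 CPM under DMSO. No CPT library reached the lowest DMSO library of its genotype. The gene fell by 0.64 on the log2 scale in mutants (SE 0.17, adjusted p = 0.00291) and by 0.62 in wild-type embryos (SE 0.17, adjusted p = 0.00303), to 0.640 and 0.650 of the DMSO level. In the RefSeq annotation of GRCz12tu, a different build from the danRer11 of the counts, myf6 and myf5 are neighbours, myf6 overlaps the ribosomal protein gene rps16, and myf5 holds the microRNA gene mir3906. The strand setting of the counting is not given in the sources used here, so myf6 and rps16 reads may not be fully separated. The row rps16 rose by 0.61 in mutants (adjusted p = 0.00527) and by 0.79 in wild-type embryos (adjusted p = 0.00067), opposite to myf6, and mir3906 had at most 3 counts in any library.

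Of the members, the Mef2 genes fell the most. The gene mef2ca had 18.3, 11.0 and 14.2 CPM in mutant CPT libraries, against 86.7, 78.0 and 72.4 CPM in mutant DMSO libraries. In wild-type embryos it had 15.9, 13.6 and 11.6 CPM under CPT, against 66.1, 75.0 and 75.0 CPM under DMSO. The highest CPT library was thus far below the lowest DMSO library. The log2 fold change was -2.43 ± 0.15 in mutants (adjusted p = 6.18e-11), a 5.40-fold fall, and -2.40 ± 0.15 in wild-type embryos (adjusted p = 6.42e-11), a 5.29-fold fall.

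The gene mef2d had 9.51, 6.56 and 7.05 CPM in mutant CPT libraries, against 48.3, 35.6 and 39.9 CPM in mutant DMSO libraries. In wild-type embryos it had 8.79, 9.30 and 7.63 CPM under CPT, against 33.2, 36.0 and 34.3 CPM under DMSO. Again no library of 1 treatment entered the range of the other. The log2 fold change was -2.40 ± 0.15 in mutants (adjusted p = 5.54e-11), a 5.28-fold fall, and -2.01 ± 0.15 in wild-type embryos (adjusted p = 4.24e-10), a 4.03-fold fall. Only a small share of tested genes had lower fold changes: mef2ca lay at the 3.46 percentile in mutants and the 3.80 percentile in wild-type embryos, and mef2d at the 3.56 percentile in mutants and the 6.0 percentile in wild-type embryos.

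**Figure D2:**
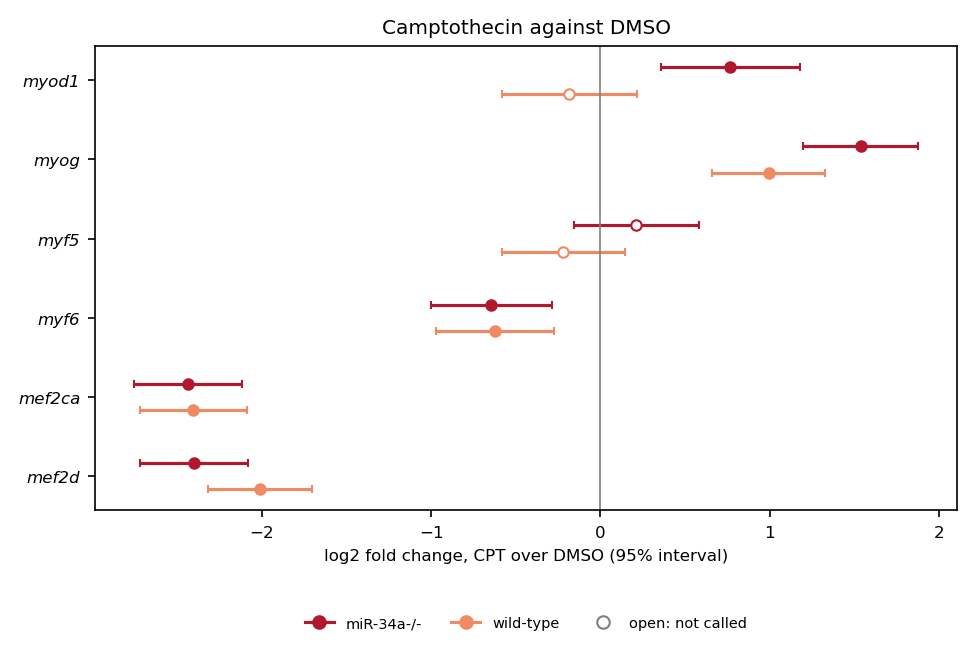
Log2 fold change of CPT over DMSO for each gene, with miR-34a-/- embryos above wild-type embryos and 95% intervals as bars; filled points are called at an adjusted p under 0.05 and open points are not. The intervals of mef2ca and mef2d lie below -1.70 in both genotypes, and that of myog above 0.66.

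Libraries of the 2 treatments did not overlap for 5 of 6 members in mutants, where 66.1% of all tested genes did not overlap, and for 4 of 6 in wild-type embryos, where 64.3% did not. The wild-type share is close to that of the transcriptome as a whole, and the mutant share is higher. In a set of only 6 genes, neither is read as a result about the members.

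The other Mef2 genes were read beside the members. Of the 4 listed, mef2ab was not analysed here and the other 3 were tested. The gene mef2cb, a co-orthologue of mef2ca, had 4.73 ± 0.30 CPM in mutant CPT and 26.6 ± 2.0 CPM in mutant DMSO embryos (SD, n = 3 each), and 3.96 ± 1.65 CPM in wild-type CPT and 24.4 ± 2.9 CPM in wild-type DMSO embryos. It fell by 2.49 in mutants (adjusted p = 3.99e-09) and by 2.58 in wild-type embryos (adjusted p = 1.78e-09). The gene mef2aa fell too, by 2.59 in mutants (adjusted p = 7.17e-08) and by 3.03 in wild-type embryos (adjusted p = 4.56e-09). The divergent family gene mef2b was at 0.31 in mutants (adjusted p = 0.494) and 0.48 in wild-type embryos (adjusted p = 0.243), at a low level of 0.93 to 1.31 CPM in the group means. Thus 4 of the 5 tested Mef2 genes fell in each genotype, 2 of them members. Of all tested genes, 31.7% were called lower in mutants and 31.8% in wild-type embryos.

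The same comparisons between genotypes ask whether the factors depend on miR-34a. No member was called between mutants and wild-type embryos under CPT, where 3.29% of tested genes were called (1.13% higher, 2.16% lower), or under DMSO, where 0.598% were (0.194% higher, 0.405% lower). The unadjusted edgeR p was under 0.05 for 1 member in each (myog under CPT, myod1 under DMSO). Of all 11866 tested genes, it was under 0.05 for 2254 under CPT and for 1397 under DMSO. DESeq2 and limma-voom called 0 members in both. In DMSO embryos myod1 was the member farthest from 0: its 3 mutant libraries (5.87 to 9.50 CPM) lay below its 3 wild-type libraries (10.1 to 12.9 CPM). The log2 difference was -0.62 ± 0.20 (95% interval -1.02 to -0.21), with an unadjusted edgeR p of 0.0049 and an adjusted p of 0.181. Of the members, 1 of 6 did not overlap between the genotypes in DMSO, against 17.1% of all genes. In CPT embryos the member without overlap was myog, with 104 to 134 CPM in mutants and 80.8 to 103 CPM in wild-type embryos, again 1 of 6, against 22.8% of all genes. Its log2 difference was 0.37 ± 0.16 (interval 0.043 to 0.70, adjusted p = 0.205). With library totals it was 0.55 and called (adjusted p = 0.0381), where the median of all genes moved to 0.20.

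The other genotype differences were not called. For myf5 the log2 difference was 0.29 under CPT (95% interval -0.081 to 0.66) and -0.14 under DMSO (-0.51 to 0.22). Under CPT myod1 was at 0.33 (-0.07 to 0.73), and under DMSO myog was at -0.17 (-0.51 to 0.16). Between the genotypes, mef2ca differed by 0.10 under CPT (95% interval -0.22 to 0.43) and by 0.13 under DMSO (-0.16 to 0.42). The difference in mef2d was -0.13 under CPT (-0.46 to 0.20) and 0.26 under DMSO (-0.028 to 0.54). For myf6 it was -0.029 under CPT (-0.39 to 0.33) and -0.0071 under DMSO (-0.35 to 0.33). With 3 libraries a group, true differences anywhere within these intervals remain possible.

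The interaction asks whether the CPT effect itself differed between the genotypes. No member was called, where 0.16% of tested genes were (0.0253% higher, 0.135% lower). The unadjusted edgeR p was under 0.05 for 2 members, and for 1797 of all 11866 tested genes. The CPT effect on myod1 was larger in mutants by 0.95 ± 0.27 (95% interval 0.38 to 1.52), with an unadjusted edgeR p of 0.00238 and an adjusted p of 0.11. DESeq2 called this difference (0.94, adjusted p = 0.0389) and limma-voom called 0 members. Over all genes DESeq2 called many more in the interaction than edgeR did, with both counts given in the last paragraph. For myod1 the same mutant DMSO libraries, its lowest group, enter the CPT effect in mutants, the DMSO genotype difference and this interaction. These results are therefore not independent. For myog the difference was 0.54 ± 0.22 (interval 0.074 to 1.01, adjusted p = 0.256), and for mef2d it was -0.39 ± 0.21 (interval -0.83 to 0.046, adjusted p = 0.391). The values for mef2ca (-0.03) and myf6 (-0.022) were near 0, and myf5 was at 0.43 ± 0.25 (adjusted p = 0.434).

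**Figure D3:**
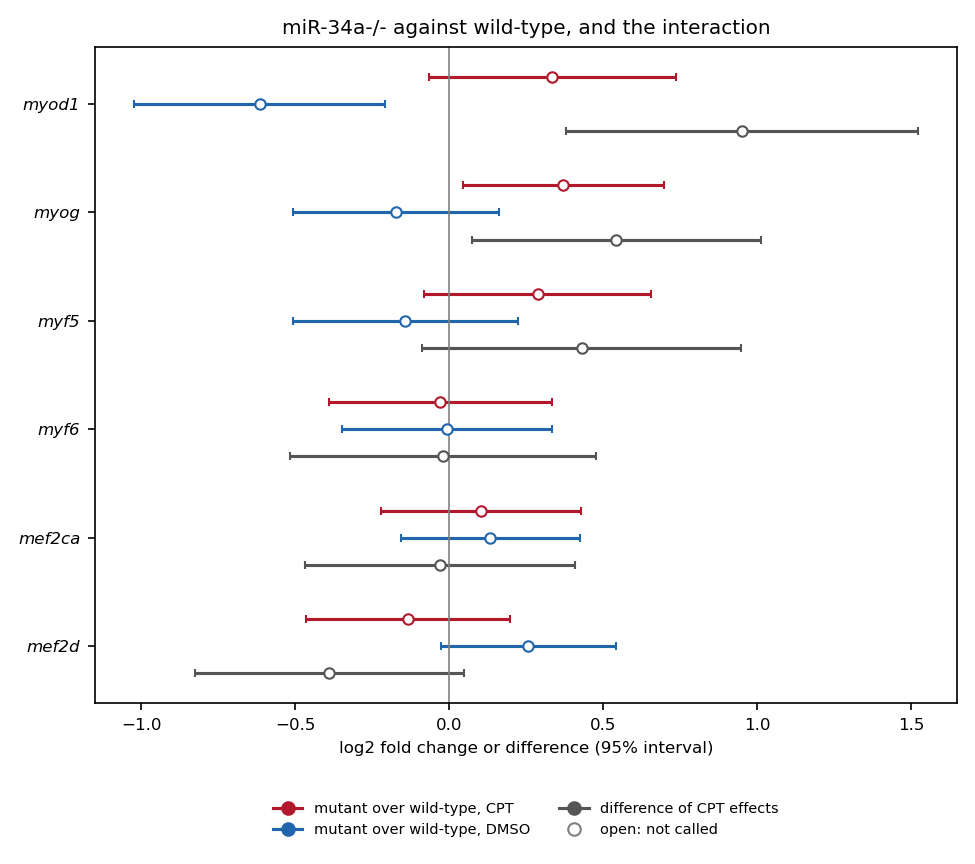
Log2 differences with 95% intervals for each gene: miR-34a-/- over wild-type under CPT (top), the same under DMSO (middle) and the difference between the CPT effects, mutant minus wild-type (bottom). All points are open, since no member was called. The myod1 interval under DMSO ends at -0.21 and that of its interaction starts at 0.38.

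The order of the 4 groups differed between members. From low to high, mef2d averaged 7.71 ± 1.58 CPM in mutant CPT, 8.57 ± 0.86 CPM in wild-type CPT, 34.5 ± 1.4 CPM in wild-type DMSO and 41.3 ± 6.4 CPM in mutant DMSO embryos (SD, n = 3 each). For mef2ca the same order of treatments held, with 14.5 ± 3.7 CPM in mutant CPT, 13.7 ± 2.1 CPM in wild-type CPT, 79.0 ± 7.2 CPM in mutant DMSO and 72.0 ± 5.2 CPM in wild-type DMSO embryos. Within a treatment neither gene was called between the genotypes. For myog the order was mutant CPT (115 ± 17 CPM), wild-type CPT (88.8 ± 12.2 CPM), wild-type DMSO (44.6 ± 5.9 CPM) and mutant DMSO (39.5 ± 9.1 CPM), again with a call only between the treatments. For myod1 the order was mutant CPT (12.4 ± 2.4 CPM), wild-type DMSO (11.2 ± 1.5 CPM), wild-type CPT (9.93 ± 1.82 CPM) and mutant DMSO (7.37 ± 1.90 CPM), and each neighbour in this order overlapped the next in its libraries. The means of myf5 spanned only 7.49 to 9.23 CPM, and those of myf6 were 5.90 ± 1.16 and 6.04 ± 0.47 CPM under CPT in mutants and wild-type, against 9.28 ± 1.01 and 9.32 ± 0.24 CPM under DMSO.

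Over the 12 libraries, on log2 CPM, the members with a common response ran together. Pearson's r was 0.99 between mef2ca and mef2d and 0.94 between myf6 and mef2ca, while myog ran opposite to mef2d at -0.96. All points share the libraries, the scaling and the treatment groups. After the group means were taken out, r was 0.80 between mef2ca and mef2d, 0.71 between myod1 and mef2ca, and -0.65 between myog and mef2d, over the same 12 libraries. On that scale r was also -0.72 between myf5 and mef2ca and -0.70 between myod1 and myog. The sign depended on the scale for myod1, whose r over the 12 libraries before the means were removed was -0.34 with mef2ca and 0.36 with myog. The genes most like each member, by r over the 12 libraries among all genes tested, are named here as a description. For mef2ca they were znf609a, mbnl2 and lrp5 (each r = 0.997), and 1305 genes had r above 0.95. For mef2d they were nr5a2 (r = 0.997), the neural RNA-binding protein gene elavl4 (0.996) and kdm4b (0.996), and 1226 genes had r above 0.95. For myog they were c1d, mcmdc2as and itpa (each r = 0.99), and 154 genes had r above 0.95. For myf6 they were spon1a (0.98), ddc (0.98) and rxraa (0.97), and 44 genes had r above 0.95. No gene passed 0.95 with myod1, whose nearest was mgrn1b (0.91), or with myf5, whose nearest was gemin2 (0.90).

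Genes that act before the members in the programme were read next. The counts under CPT here and in the later lists stand against shares over all tested genes. Those shares were 28.5% called higher and 31.7% lower in mutants, and 29.1% higher and 31.8% lower in wild-type embryos. Of 22 tested upstream regulators, 2 rose and 10 fell in mutants (median log2 change -0.39) and 1 rose and 10 fell in wild-type embryos (median -0.17), where the median of all genes was -0.0064 in mutants and -0.0025 in wild-type embryos. Without wild-type CPT library 1, 3 rose in wild-type embryos and the median was -0.27, and with library totals the median was -0.40. The Eya genes, coactivators of homeodomain factors that act in muscle precursors, fell. The log2 change of eya1 was -3.16 in mutants (adjusted p = 1.20e-12) and -3.17 in wild-type embryos (adjusted p = 7.51e-13), and that of eya2 was -2.63 in mutants and -2.49 in wild-type embryos. The gene pax7b, of a marker factor for muscle precursors and neural crest, had 4.21 ± 0.59 CPM in mutant CPT and 19.4 ± 1.3 CPM in mutant DMSO embryos, and 3.93 ± 0.30 CPM in wild-type CPT and 17.7 ± 1.9 CPM in wild-type DMSO embryos (SD, n = 3 each). Its log2 change was -2.21 in mutants and -2.17 in wild-type embryos. The group means of prdm1a, named after its values were seen, went the other way. They were 57.3 CPM in mutant CPT and 43.6 CPM in mutant DMSO embryos. In wild-type embryos they were 60.0 CPM under CPT and 37.3 CPM under DMSO. Of 13 tested genes of Hedgehog signalling and slow muscle induction, 1 rose and 7 fell in mutants (median -0.62), and 3 rose and 8 fell in wild-type embryos (median -0.69). Only 1 rose in wild-type embryos without wild-type DMSO library 3 or with library totals. With the 2 mutant groups fitted alone, 12 of these genes were tested. There 1 rose and 7 fell as before, and the median was -1.02. Their leading genes were the Gli transcription factors of the pathway: the log2 change of gli2a was -3.50 in mutants and -3.74 in wild-type embryos, that of gli2b -2.98 in mutants and -3.16 in wild-type embryos, and that of gli3 -2.94 in mutants and -3.75 in wild-type embryos.

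Genes for proteins that bind the members' products, or act on them, follow. Of 23 listed partners only 12 were matched to a row of the counts, and 11 were tested. Of these 11, 1 rose and 8 fell in mutants (median -0.59), and 1 rose and 6 fell in wild-type embryos (median -0.49). None rose in wild-type embryos without wild-type CPT library 1, without wild-type DMSO library 1 or with library totals. The E protein gene tcf3a, whose product pairs with MyoD family factors, fell, with log2 changes of -1.66 in mutants (adjusted p = 6.10e-06) and -1.50 in wild-type embryos (adjusted p = 1.501e-05). The Tead factor gene tead3b was at -1.69 in mutants and -1.76 in wild-type embryos, and vgll2b, which encodes a Tead cofactor, at -1.22 in mutants and -0.88 in wild-type embryos, both called. Of 23 listed inhibitors, 16 were matched to a row and tested. Of these 16, 3 rose and 7 fell in mutants (median -0.39), and 3 rose and 10 fell in wild-type embryos (median -0.43). The class IIa deacetylase gene hdac4, whose product represses Mef2 proteins, fell by 2.85 in mutants (adjusted p = 2.94e-09) and by 3.46 in wild-type embryos (adjusted p = 1.77e-10). A second such gene, hdac9b, was at -1.18 in mutants and -0.84 in wild-type embryos, and the repressor gene hey1 at -0.64 in mutants and -0.92 in wild-type embryos, all called. With library totals the wild-type median of the inhibitors was -0.66. In contrast, id2a, which encodes a dimerisation inhibitor of helix-loop-helix proteins, rose by 1.03 in mutants (adjusted p = 8.20e-07) and by 0.87 in wild-type embryos (adjusted p = 6.49e-06).

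**Figure D4:**
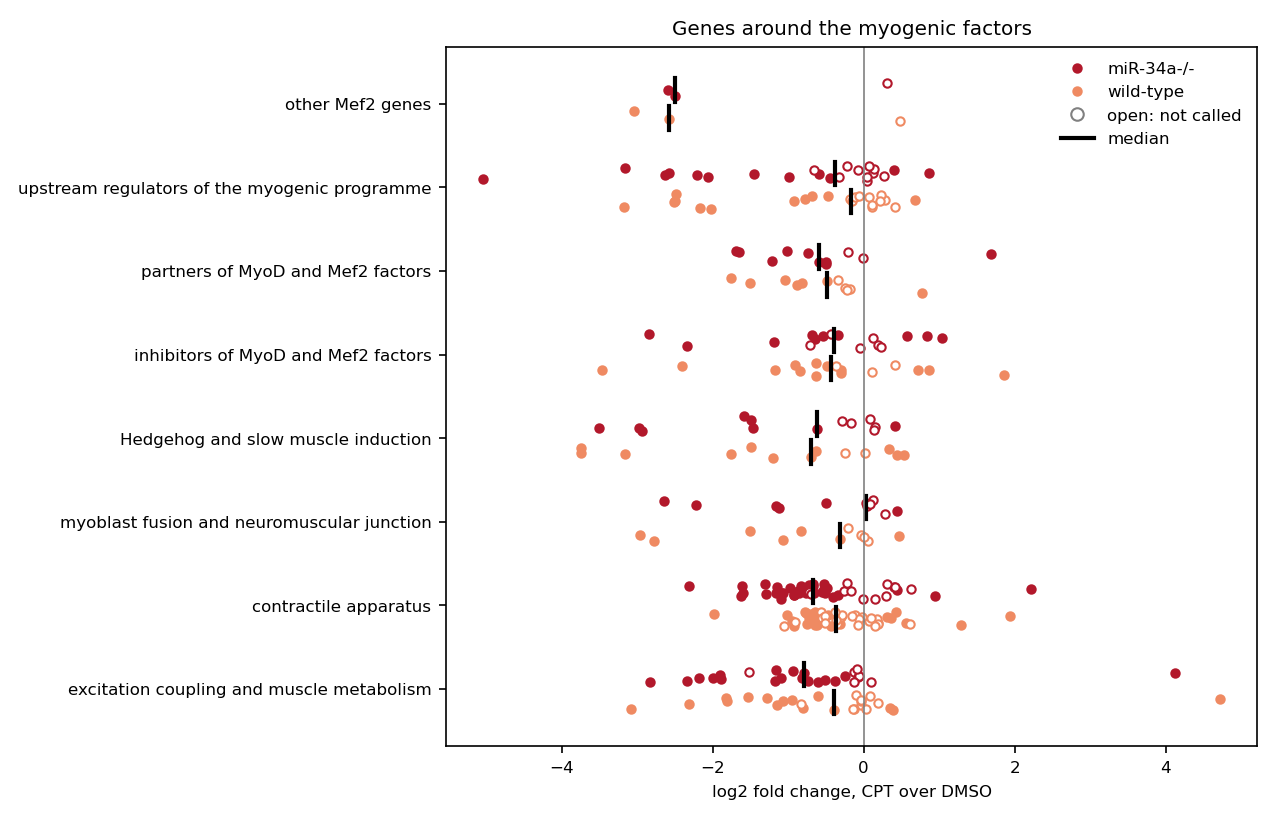
Log2 fold change of CPT over DMSO for the tested genes of 8 lists, with miR-34a-/- embryos above wild-type embryos in each list. Filled points are called, open points are not, and black bars are list medians. Of the other Mef2 genes, 2 of 3 lie at -2.49 or below in both genotypes, and the median of the contractile list is -0.68 in mutants and -0.36 in wild-type embryos.

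Genes of differentiated muscle, many of them known targets of the members in vertebrates, were the largest list. Of 45 tested genes of the contractile apparatus, 4 rose and 30 fell in mutants (median -0.68), and 6 rose and 16 fell in wild-type embryos (median -0.36). The wild-type median was -0.18 without wild-type CPT library 3. With library totals 3 rose and 26 fell in wild-type embryos (median -0.59). The skeletal actin gene acta1b was at -1.60 in mutants and -0.65 in wild-type embryos, acta1a at -1.30 in mutants and -0.61 in wild-type embryos, and the Z-disc gene ldb3b at -1.06 in mutants and -0.47 in wild-type embryos. The myosin chaperone gene unc45b was at -0.76 in mutants and -0.94 in wild-type embryos. The myosin light chain gene mylpfb was at -0.52 in mutants and -0.75 in wild-type embryos, and the troponin gene tnni2b.2 at -2.32 in mutants and -1.98 in wild-type embryos. These 6 genes were called lower in both genotypes. A gene that went the other way, named after its value was seen, is the slow troponin gene tnnt1, which rose by 2.22 in mutants and 1.93 in wild-type embryos at a low level (5.34 ± 0.90 CPM in mutant CPT and 1.16 ± 0.40 CPM in mutant DMSO embryos, and 2.99 ± 1.93 CPM in wild-type CPT and 0.801 ± 0.040 CPM in wild-type DMSO embryos, SD, n = 3 each). At a high level, the troponin gene tnni2b.1, also named after its values were seen, had higher group means under CPT. They were 888 CPM in mutant CPT and 656 CPM in mutant DMSO embryos, and 1061 CPM in wild-type CPT and 786 CPM in wild-type DMSO embryos. Actin, myosin and troponin genes have close copies, so single-gene counts among them are uncertain.

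Of 25 tested genes of excitation coupling and muscle metabolism, 1 rose and 17 fell in mutants (median -0.78), and 3 rose and 12 fell in wild-type embryos (median -0.40). The calcium channel gene cacna1sa fell by 2.18 in mutants (adjusted p = 2.98e-10) and by 2.31 in wild-type embryos (adjusted p = 1.07e-10). The junctophilin gene jph1b was at -2.33 in mutants and -1.81 in wild-type embryos, the parvalbumin gene pvalb4 at -1.10 in mutants and -0.61 in wild-type embryos, and the channel subunit gene cacng1a at -0.94 in mutants and -1.53 in wild-type embryos, all called. With library totals 1 gene of this list rose in wild-type embryos, and the median was -0.63. The gene ampd1, named after its values were seen, had group means that went the other way. They were 5.92 CPM in mutant CPT and 0.333 CPM in mutant DMSO embryos, and 5.16 CPM in wild-type CPT and 0.196 CPM in wild-type DMSO embryos. Of 11 tested genes of myoblast fusion and the neuromuscular junction, 1 rose and 5 fell in mutants (median 0.03) and 1 rose and 6 fell in wild-type embryos (median -0.32). With library totals the wild-type median was -0.54 and none rose. Without mutant DMSO library 3 the mutant counts were 2 and 3 and the median was -0.077. The mutant median was also below 0 without mutant CPT library 1 or 2, without mutant DMSO library 1 or 2, and with library totals (-0.029). The synapse organiser genes musk (-2.22 in mutants, -2.77 in wild-type embryos) and lrp4 (-2.64 and -2.96) and the fusion adhesion gene jam3b (-1.16 and -1.51) led this list by smallest p. The group means of chrna1, named after its values were seen, went the other way. They were 116 CPM in mutant CPT and 85.2 CPM in mutant DMSO embryos. In wild-type embryos they were 121 CPM under CPT and 87.4 CPM under DMSO.

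Between the genotypes under CPT, 11 of the 45 contractile genes were lower in mutants and 0 higher (median -0.42), where 2.16% of all genes were called lower. Among them were the actin genes actc1a (-0.88, adjusted p = 0.000213), acta1b (-0.80, adjusted p = 0.00517) and actc1b (-0.74, adjusted p = 0.00931), the 3 with the smallest p. For actc1a the difference between the CPT effects was called too (-0.97, adjusted p = 0.0195): under CPT it was at -0.41 in mutants (adjusted p = 0.00391) and at 0.56 in wild-type embryos (adjusted p = 0.00024). That call depended on the libraries. For other methods the number of contractile genes called is given, not the call of actc1a itself. That number was 1 in the main fit, and also with library totals or DESeq2-type size factors. No contractile gene passed the interaction test without mutant CPT library 1, 2 or 3 or mutant DMSO library 2. None passed without wild-type CPT library 2, or wild-type DMSO library 2 or 3, either. In contrast, 11 contractile genes were called lower in it without wild-type CPT library 3 and 9 with DESeq2. The number was 3 without mutant DMSO library 3. It was 2 without wild-type DMSO library 1, with limma-voom, with the replicate block or with no filter. The count of 11 genes lower in mutants under CPT depended on single libraries and on the scaling. It was 14 with DESeq2 or with no filter, 13 with the replicate block, 12 with limma-voom and 11 with DESeq2-type size factors. It was 22 without wild-type CPT library 3, 6 without mutant CPT library 1 or wild-type CPT library 1, 3 without mutant CPT library 3, 2 without mutant CPT library 2 or wild-type CPT library 2, and 4 with library totals, where the median was -0.22, or with the 2 groups fitted alone. In addition, 1 contractile gene was called higher in mutants without wild-type CPT library 3 or with library totals. With the 2 groups fitted alone, 43 contractile genes were tested. Calls over all genes moved too. In this comparison 256 genes were called lower in the main fit, and 107 with library totals. The number was 115, 46 and 628 without wild-type CPT libraries 1, 2 and 3. It was 79, 58 and 56 without mutant CPT libraries 1, 2 and 3. No member showed a called difference in the same comparison.

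Whole embryos cannot tell fewer muscle cells from less RNA per muscle cell. Of 10 skeletal muscle markers, 0 rose and 8 fell in mutants under CPT, and 1 rose and 3 fell in wild-type embryos. Of all tested genes, 31.7% were called lower in mutants and 31.8% in wild-type embryos, so the wild-type count of falls is near that share. Their summed level was 15430.5 to 19701.5 CPM in mutant CPT and 26749.8 to 33024.6 CPM in mutant DMSO libraries, and 23036.7 to 30624.9 CPM in wild-type CPT and 27047.7 to 28897.3 CPM in wild-type DMSO libraries. In this sum, on the TMM scale, the treatments did not overlap in mutants and overlapped in wild-type embryos. As a share of all counts, without TMM factors, the contractile list did not overlap between treatments in either genotype. Its share was 2.53 to 2.98% in mutant CPT and 4.29 to 4.96% in mutant DMSO libraries. In wild-type embryos it was 3.15 to 3.77% under CPT and 4.50 to 4.60% under DMSO. The wild-type overlap in the marker sum should thus be read on the TMM scale only. One of the 10 skeletal muscle markers, the myosin light chain gene mylpfa, averaged 0.254 CPM in mutant CPT, 0.386 CPM in wild-type CPT, 0.836 CPM in mutant DMSO and 0.775 CPM in wild-type DMSO libraries. The markers tnnc2 (group means 0.478 to 0.866 CPM) and ckma (0.714 to 0.944 CPM) were also low. The part of these marker levels in the results on the members was not tested.

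**Figure D5:**
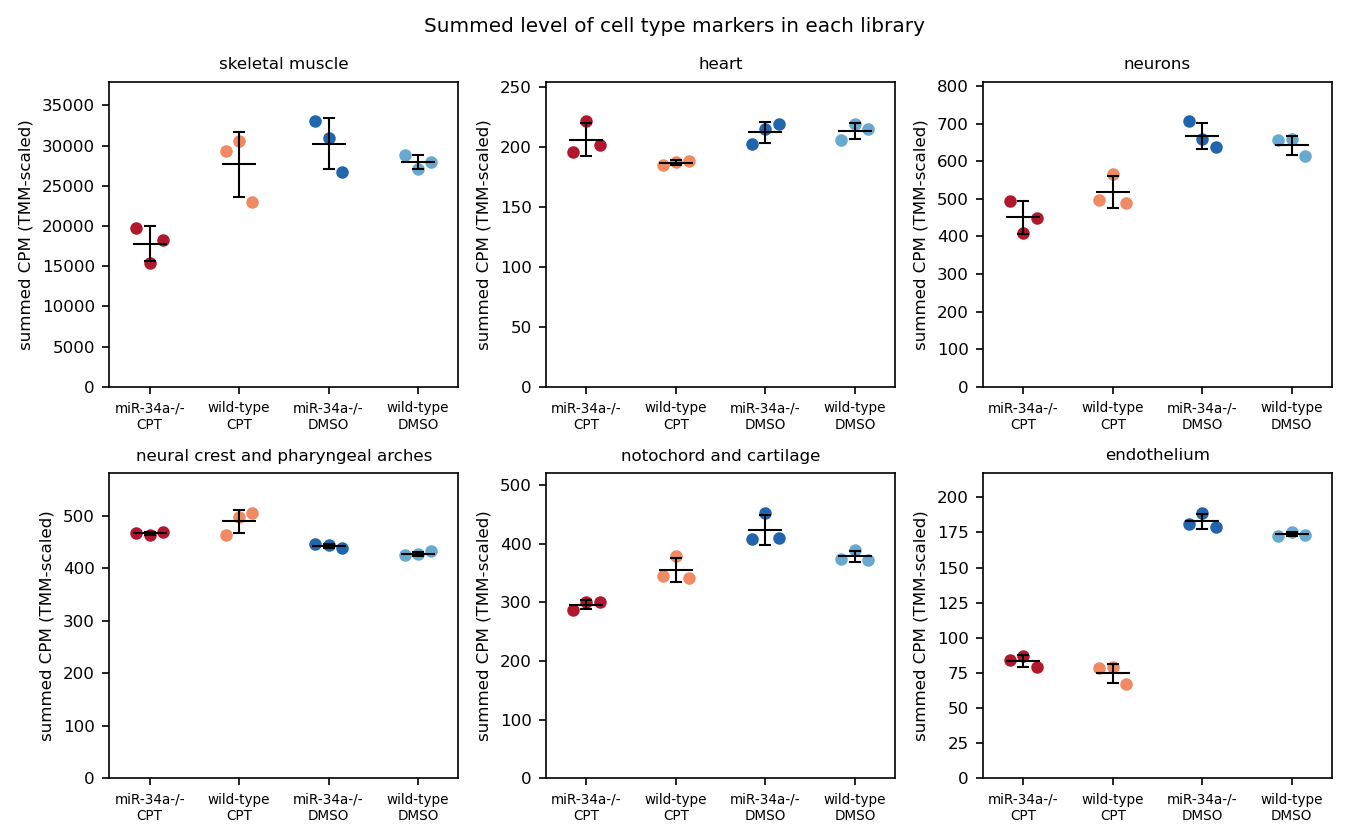
Summed CPM of 6 lists of cell type markers in each library, with group means and SD (n = 3) and axes from 0. The endothelial sum is 66.9 to 87.1 CPM in the 6 CPT libraries and 172 to 189 CPM in the 6 DMSO libraries, whereas the heart sum spans 185 to 222 CPM over all 12.

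Markers of other tissues, some of which use Mef2 genes, were summed in the same way, on the TMM scale. TMM factors were 0.835 to 0.962 in wild-type CPT libraries, so sums in that group depend more on the scaling than sums in the others. Sums with library totals are not given. Under CPT, 28.5% of all tested genes were called higher and 31.7% lower in mutants. In wild-type embryos the shares were 29.1% and 31.8%. Of 10 neuronal markers, 0 rose and 7 fell in mutants and 1 rose and 5 fell in wild-type embryos, with sums of 408 to 494 CPM in mutant CPT and 638 to 706 CPM in mutant DMSO libraries, and 489 to 567 CPM in wild-type CPT and 613 to 658 CPM in wild-type DMSO libraries. Of 10 heart markers, 2 rose and 3 fell in mutants and 0 rose and 5 fell in wild-type embryos, with sums of 196 to 222 CPM in mutant CPT and 203 to 220 CPM in mutant DMSO libraries, and 185 to 189 CPM in wild-type CPT and 206 to 219 CPM in wild-type DMSO libraries. Of 10 neural crest and pharyngeal arch markers, 5 rose and 2 fell in mutants and 4 rose and 2 fell in wild-type embryos. Their sums were 463 to 469 CPM in mutant CPT and 439 to 446 CPM in mutant DMSO libraries, and 464 to 506 CPM in wild-type CPT and 425 to 432 CPM in wild-type DMSO libraries. The 7 notochord and cartilage markers had 1 rise and 3 falls in mutants and 1 and 2 in wild-type embryos. Their sums were 287 to 301 CPM in mutant CPT and 408 to 453 CPM in mutant DMSO libraries, and 342 to 379 CPM in wild-type CPT and 372 to 390 CPM in wild-type DMSO libraries. Of 6 tested endothelial markers 1 rose and 4 fell in mutants and 0 rose and 4 fell in wild-type embryos. None of the marker genes in the table was at 0 in all libraries. The part of these tissues in the fall of mef2ca and mef2d was not tested.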

How the data were processed

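The authors deposited whole-number read counts per gene symbol, not normalised, for 12 libraries. HTSeq 0.9.1, STAR 2.7, Bowtie2, Trim Galore 0.4.4, Picard 2.5.0 and the build danRer11 are named in the submitters' processing notes. For annotation, strand setting and multiply aligned reads, nothing is given. From these counts, 11866 genes passed filterByExpr by group. One robust quasi-likelihood model (edgeR 4.0.16 in R 4.3.3, TMM scaling, 4 group means, 8 residual degrees of freedom) gave all contrasts, with Benjamini-Hochberg adjustment over all genes tested. It was also run on simulated counts, in which few genes changed, as many up as down, and in wild-type CPT libraries only. The CPT response here was far broader, so that run does not test the scaling for these data. CPM are TMM-scaled, and each standard error was derived from the F statistic and the log2 fold change. Log2 CPM for correlations used a prior count of 2. Intervals are 95% and use the t distribution. The 242 list and marker entries gave, with the members, 208 rows in the table, 7 of them through a synonym. From each list up to 3 called genes of smallest p per CPT contrast were named, and the 3 genes most like each member. The slow troponin tnnt1, tnni2b.1, ampd1, chrna1, prdm1a and the genes named between the genotypes were chosen after their values were seen. List counts under the alternatives were added after seeing the data. The members and lists were chosen with earlier results of these data known. Alternatives were DESeq2 1.42.0, limma-voom (limma 3.58.1), other scaling, no filter, the compared groups alone, a replicate block and each library left out. The labels do not say what a replicate number shares, so the numbers were not taken as pairs. Same-numbered libraries did not deviate together (correlation of deviations -0.158 to 0.148 over the 12 pairs).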

Additional observations from a re-analysis of the deposited data

How the results depend on the processing

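For CPT against DMSO, 227 of 228 alternative values over the 12 member results kept direction and side of the threshold. The exception was myf5 in wild-type embryos, at -0.44 and called with library totals. Library totals also gave 0.55 (called) for myog and 0.058 for mef2d in mutants against wild-type under CPT, 0.16 for myf6 there, 0.0078 for myf6 under DMSO, and interactions of 0.15 for mef2ca and 0.15 for myf6, where the median of all genes shifted by 0.20 under CPT and 0.18 in the interaction. DESeq2 called the myod1 interaction (0.94). Uncalled genotype values near 0 changed sign when libraries were left out: mef2ca ranged from -0.12 to 0.27 under CPT and from -0.25 to 0.13 in the interaction, myf6 from -0.17 to 0.12 under CPT, -0.056 to 0.081 under DMSO and -0.16 to 0.12 in the interaction, and myog from -0.30 to 0.0027 under DMSO. With the replicate block all 30 member results kept direction and call (the myod1 interaction was 0.97, adjusted p = 0.0762).

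The number of genes called was stable for CPT against DMSO (6472 to 7424 in mutants and 6522 to 7322 in wild-type embryos over all alternatives) and not for the genotype contrasts. Under CPT it was 390, against 690 with DESeq2, 1195 with library totals and 193 with the 2 groups alone, and 65 to 1058 with a library left out (128, 90 and 90 without mutant CPT libraries 1, 2 and 3, and 178, 65 and 1058 without wild-type CPT libraries 1, 2 and 3). Under DMSO it was 71, against 182 with DESeq2 and 24 to 198 with a library left out (41, 24 and 35 without mutant DMSO libraries 1, 2 and 3, 198, 27 and 27 without wild-type DMSO libraries 1, 2 and 3, and 117 without wild-type CPT library 3). For the interaction it was 19, against 326 with DESeq2, 7 with library totals, 35 without the filter and 0 to 505 with a library left out (505 without wild-type CPT library 3, 116 without wild-type DMSO library 1, 55 without mutant DMSO library 3, 31 without wild-type CPT library 1, 1 without wild-type DMSO library 3 and 0 without any mutant CPT library, mutant DMSO library 2, wild-type CPT library 2 or wild-type DMSO library 2). Pairs of libraries within a group were also compared by chi-square per degree of freedom of their counts, where larger means less alike. It was 67.2 and 39.0 for wild-type CPT library 3 against libraries 1 and 2, and 7.70 to 24.2 for every other pair. The value also grows with depth, and that library was the deepest. Its TMM factor was 0.962, against 0.835 and 0.877 in wild-type CPT libraries 1 and 2. The cause of the unstable numbers was not tested.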
